A study of Homo sapiens with 6 samples.

Results

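The BCL2 family apoptosis regulators comprised 10 gene symbols out of the 28278 in the count tables: BAK1, BCL2A1, BCL2, BCL2L1, BCL2L2, BCL2L11, MCL1, BID, BAD and BMF. They were chosen by name as family members other than the p53 targets BAX, BBC3 and PMAIP1, with measured values of the same comparison in view. Their differences between the groups are therefore given as a description, and no p-value is given for them. The study asked how gene expression differs between HCT116 cells carrying an shRNA against TRIM21 (shTRIM21, labelled TRIM21 knockdown, 3 libraries) and HCT116 cells carrying a scrambled shRNA (shControl, labelled WT, 3 libraries). HCT116 is an established human line from a colon carcinoma. Both groups share the lentiviral delivery, puromycin at 5 µg/ml from 36 h after infection for 2 to 3 weeks, and the label day 21. The labels give neither the shRNA sequences nor whether the selected cells were pools or clones, and the titles number the libraries as biological replicates without naming a culture for each. Any p-value given for another gene thus measures the spread between these libraries only, which may be technical.

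Proteins of the BCL2 family decide whether the outer mitochondrial membrane stays intact during stress. BAK1, with its relative BAX, forms the pores that let cytochrome c out and start the caspase cascade. The pro-survival proteins BCL2, BCL2L1 (BCL-XL), BCL2L2 (BCL-W), MCL1 and BCL2A1 (BFL1) hold the pore formers and their activators in check. The BH3-only proteins BCL2L11 (BIM), BID, BAD and BMF sense stress and either bind the pro-survival proteins or activate the pore formers directly. In colon epithelium and its tumours BCL2L1 and MCL1 are known as the main pro-survival members.

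Of the 10 members, BAK1 and BCL2A1 were higher in shTRIM21 cells and MCL1 was lower, and these 3 were called, which here means that the Benjamini-Hochberg adjusted p over all genes was under 0.05 by the quasi-likelihood method of edgeR. In all, 9 members passed the filter on low counts and were tested, and BMF did not pass it. The test called 3 of the 9, beside a background of 9.08% of the 14002 genes tested (4.43% higher and 4.66% lower). Because the members were chosen with this contrast known, nothing is read from that count. The libraries of the groups did not overlap for 4 of the 9 tested members, the 3 called ones and BCL2, beside 28.1% of all genes tested (14.1% higher and 13.9% lower). They did not overlap for the untested BMF either.

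Sequences of 2 kinds are shown for the 3 called members and for BCL2L11. The first kind comes from the 3′ untranslated regions (UTRs) of GENCODE release 29 (GRCh38). The 7-base sequences AGTGGAA and GTGTCAC were searched on the transcript strand of the longest annotated 3′ UTR of each gene. Both were picked with earlier results on these same fold changes known, so their occurrence among the members is a description and not a test. AGTGGAA was found in MCL1 (2 sites in 2824 bases) and in BCL2L11 (3 sites in 4480 bases). BCL2L11 was not called, and its libraries overlapped between the groups. It was not found in the other 8 members, among them BCL2 with 5279 bases and BMF with 3897 bases. Across the 11881 tested genes with an annotated 3′ UTR, 18.7% held it. GTGTCAC was in 0 of the 10 members and in 11.0% of those genes. Each site is printed with 10 bases on either side and the 7-base match in capitals. The MCL1 sites lie on the minus strand at chr1:150576462-150576488 and chr1:150575062-150575088, and the BCL2L11 sites on the plus strand at chr2:111164655-111164681, chr2:111165602-111165628 and chr2:111166813-111166839.
MCL1 site 1: gactggttgtAGTGGAAcaaatctgat
MCL1 site 2: tgccaaatccAGTGGAAacaagtgcat
BCL2L11 site 1: taacccctgcAGTGGAAactgagccag
BCL2L11 site 2: ttatgagtgcAGTGGAAggaagccaca
BCL2L11 site 3: aaaaaaatatAGTGGAAtacaattgtc

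The second kind is the promoter window of the 2 members that were higher, from 250 bases before to 50 bases after the start annotated by RefSeq (GRCh38.p14). RefSeq windows matched 8 of the 10 members, and MCL1 and BCL2L2 had none in the table used. Searched on both strands, each position once, were the TATA box TATAAA, the GC box GGGCGG, the AP-1 motif TGANTCA, the E-box CACGTG, the NF-kB motif and the p53 half-site. Capitals mark every match. The BAK1 window, on the minus strand at chr6:33580227-33580526, held 2 GC boxes and a p53 half-site that overlaps the second GC box by 1 base. The BCL2A1 window, on the minus strand at chr15:79971147-79971446, held a match to the TATA box sequence, beginning at -70 from the annotated start. Whether it works as a TATA box was not tested. GC boxes occurred in 45.0% of all 35116 windows of this length, the p53 half-site in 6.63% and the TATA box in 11.5%. Neither printed window matched the AP-1 motif (7.71% of all windows), the E-box (7.26%) or the NF-kB motif (5.91%).
BAK1 promoter: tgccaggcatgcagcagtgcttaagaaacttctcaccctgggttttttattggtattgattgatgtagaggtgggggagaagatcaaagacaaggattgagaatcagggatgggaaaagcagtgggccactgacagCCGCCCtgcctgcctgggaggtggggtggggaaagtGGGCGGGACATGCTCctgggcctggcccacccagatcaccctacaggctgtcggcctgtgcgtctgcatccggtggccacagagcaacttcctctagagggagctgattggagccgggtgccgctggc
BCL2A1 promoter: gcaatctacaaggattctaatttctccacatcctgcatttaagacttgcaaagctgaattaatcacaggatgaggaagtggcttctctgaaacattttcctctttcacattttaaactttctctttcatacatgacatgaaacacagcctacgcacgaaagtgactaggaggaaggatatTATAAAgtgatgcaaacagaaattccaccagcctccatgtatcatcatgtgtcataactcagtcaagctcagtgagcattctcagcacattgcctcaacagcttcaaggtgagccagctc

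The libraries held 22656160 to 25842818 counts in shTRIM21 and 24646400 to 27123657 in shControl. Genes of ribosomal RNA took 9.55% to 15.2% of the counts in shTRIM21 and 6.69% to 14.7% in shControl, with the lowest share of each group in replicate 3. TRIM21, the targeted gene, averaged 7.90 ± 1.1 CPM in shTRIM21 and 13.1 ± 2.33 CPM in shControl (SD, n = 3 each) (log2 fold change -0.73, SE 0.17; edgeR adjusted p = 0.0124). Leaving out shTRIM21 replicate 3 ended that call (-0.62, edgeR adjusted p = 0.0734), as did leaving replicate 3 out of both groups (-0.45, edgeR adjusted p = 0.114). The 7 markers of colon epithelium summed to 431 to 466 CPM in shTRIM21 and 439 to 448 CPM in shControl, and none was called. DSG2 alone averaged 282 CPM of that sum in shTRIM21 and 254 CPM in shControl (log2 fold change 0.15), whereas 5 of the 7 had a negative log2 fold change. Of these, KRT8 (-0.20), KRT18 (-0.16), VIL1 (-0.09) and CDH1 (-0.34) had every shTRIM21 library below every shControl library, as did 13.9% of all genes tested. The part of these markers in the members' values was not tested. The 4 leukocyte markers summed to at most 0.135 CPM in shTRIM21 and 0.409 CPM in shControl. The 7 fibroblast and endothelial markers summed to at most 0.348 and 0.570 CPM in those groups, with COL1A2, DCN and CDH5 at 0. In these bulk samples fewer cells with a transcript and less of it per cell cannot be told apart.

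The pore former BAK1 had the largest fold change of the tested members. The gene (ENSG00000030110, GRCh38) spans 33572547 to 33580293 of chromosome 6, minus strand. BAK1 stood at 69.4, 60.8 and 61.2 CPM (read counts normalised to TMM-scaled library sizes) in shTRIM21 replicates 1 to 3, and at 47.7, 45.0 and 37.2 CPM in shControl replicates 1 to 3. All 3 shTRIM21 libraries lay above all 3 shControl libraries, and the lowest value was that of shControl replicate 3. The means were 63.8 ± 4.83 CPM in shTRIM21 and 43.3 ± 5.44 CPM in shControl (SD, n = 3 each), a ratio of 1.47. The log2 fold change was 0.56 (SE 0.10). It stayed called with each library left out, between 0.47 without shControl replicate 3 and 0.64 without shControl replicate 1, and its smallest value over all 16 alternatives was 0.44, after correction for GC and length. BAK1 transcripts had 58.8% GC.

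**Figure D1:**
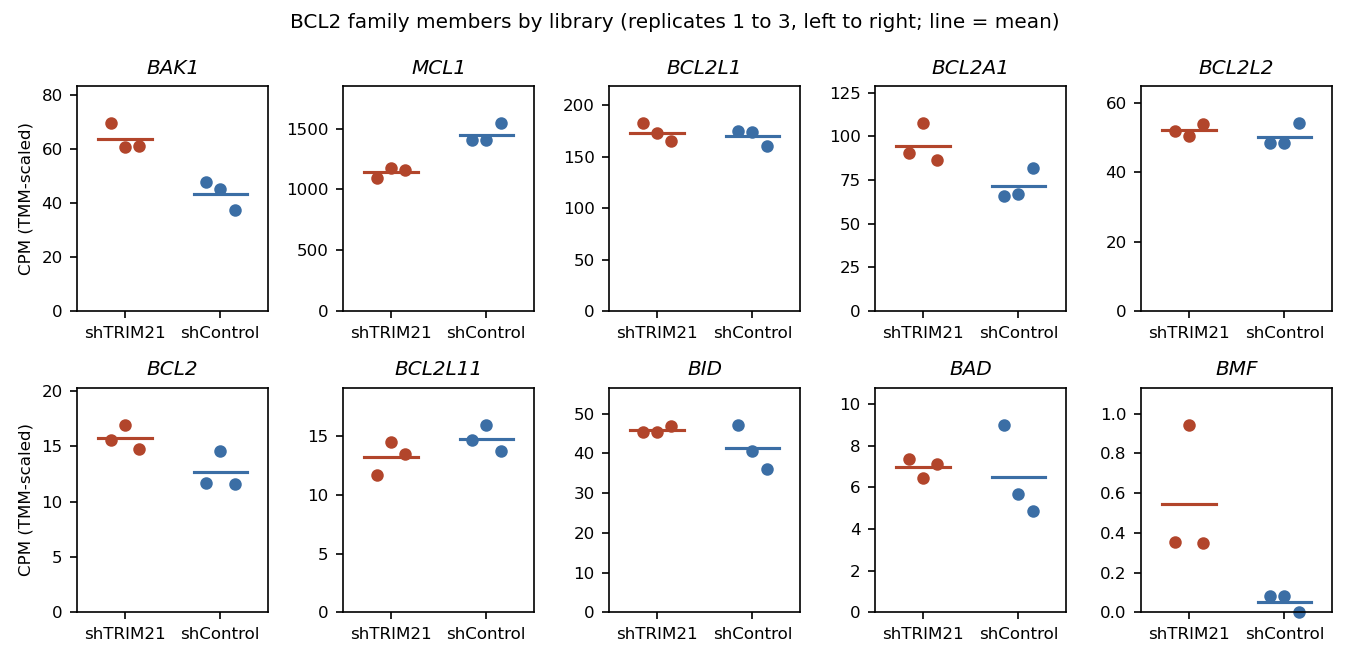
Normalised counts (CPM, linear axes from 0) of the 10 members in each library, with shTRIM21 on the left and shControl on the right of each panel; points are replicates 1 to 3 and lines are group means. BAK1, BCL2A1, BCL2 and BMF have every shTRIM21 point above every shControl point, MCL1 has every shTRIM21 point below, and the other 5 members overlap.

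Among the pro-survival members MCL1 was lower, BCL2A1 was higher, and BCL2, BCL2L1 and BCL2L2 were not called. MCL1, a short-lived protein that restrains BAK1 and BIM, was the most abundant member per length. The gene (ENSG00000143384, GRCh38) spans 150574551 to 150579738 of chromosome 1, minus strand. MCL1 stood at 1094, 1178 and 1160.5 CPM in shTRIM21 and at 1404, 1408 and 1542 CPM in shControl, for replicates 1 to 3. Every shTRIM21 library was below every shControl library, and shControl replicate 3 was the highest. The means were 1144 ± 44.4 CPM in shTRIM21 and 1451 ± 78.7 CPM in shControl (SD, n = 3 each), which leaves 78.8% of the control level. The log2 fold change was -0.34 (SE 0.07), called under all 16 alternatives with values from -0.37 to -0.29.

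BCL2A1, a pro-survival protein known as an NF-kB target in blood cells (ENSG00000140379, GRCh38), spans 79960889 to 79971446 of chromosome 15, minus strand. It stood at 90.6, 107 and 86.3 CPM in shTRIM21 and at 66.0, 67.0 and 81.6 CPM in shControl, for replicates 1 to 3. The groups did not overlap, but shTRIM21 replicate 3 and shControl replicate 3 came close to each other. The means were 94.8 ± 11.2 CPM in shTRIM21 and 71.6 ± 8.75 CPM in shControl (SD, n = 3 each), and the log2 fold change was 0.40 (SE 0.09). BCL2A1 was no longer called without shControl replicate 1 (0.35) or without shTRIM21 replicate 2 (0.30), and it was largest, at 0.58 and called, with replicate 3 left out of both groups. The leukocyte markers, from cells in which BCL2A1 is usually abundant, were at or near 0 in both groups, as given above. The part of such cells in the BCL2A1 value was not tested.

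BCL2, the founding member of the family, stood at 15.5, 16.9 and 14.8 CPM in shTRIM21 and at 11.7, 14.6 and 11.6 CPM in shControl. Its lowest shTRIM21 library and its highest shControl library were nearly level. The log2 fold change of 0.32 (SE 0.14) was not called, and after correction for GC and length it was 0.39 and called. BCL2L1, whose main product is the pro-survival BCL-XL, averaged 174 ± 8.77 CPM in shTRIM21 and 170.2 ± 8.02 CPM in shControl (SD, n = 3 each), with a log2 fold change of 0.03 (SE 0.07). The counts hold no isoforms, so BCL-XL and the pro-apoptotic short form of this gene were not told apart. BCL2L2 averaged 52.3 ± 1.71 CPM in shTRIM21 and 50.4 ± 3.27 CPM in shControl (SD, n = 3 each), with a log2 fold change of 0.05 (SE 0.08) that ranged from 0.019 after correction for GC and length to 0.12 without shControl replicate 3.

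**Figure D2:**
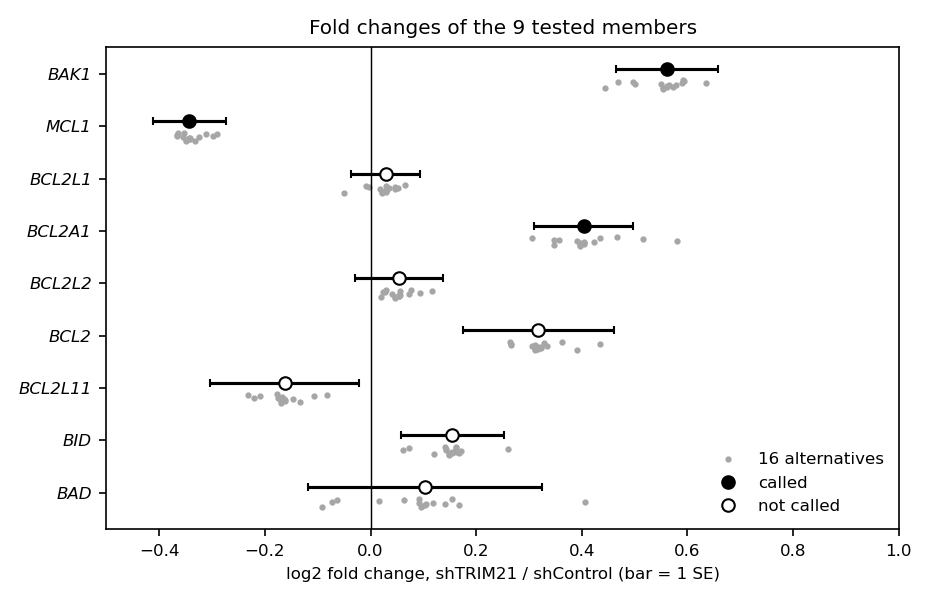
Log2 fold change (shTRIM21 over shControl, horizontal axis) of the 9 tested members, with a bar of 1 SE; filled points were called, open points were not, and grey points are the 16 alternative fits. BAK1 at 0.56, BCL2A1 at 0.40 and MCL1 at -0.34 are the called members, and the grey points of BCL2L1 and BAD lie on both sides of 0.

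The BH3-only members that passed the filter were not called. BID, which caspase 8 cleaves to link death receptors to mitochondria, averaged 45.9 ± 0.758 CPM in shTRIM21 and 41.3 ± 5.53 CPM in shControl (SD, n = 3 each), with a log2 fold change of 0.15 (SE 0.10). Its shControl libraries ranged from 36.1 to 47.1 CPM and enclosed all the shTRIM21 values. The fold change of BID was 0.26 without shControl replicate 1, 0.073 without shControl replicate 3 and 0.062 with replicate 3 left out of both groups. BAD, which is held inactive by 14-3-3 proteins when phosphorylated, had a log2 fold change of 0.10 (SE 0.22), with 6.47 to 7.38 CPM in shTRIM21 and 4.88 to 9.0 CPM in shControl. BCL2L11, a broad binder of all pro-survival members, stood at 11.7, 14.5 and 13.4 CPM in shTRIM21 and at 14.7, 15.9 and 13.7 CPM in shControl. The groups overlapped, and the log2 fold change was -0.16 (SE 0.14), negative under all 16 alternatives and called in none. It shrank to -0.082 without shTRIM21 replicate 1 and to -0.11 without shControl replicate 2.

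BMF, a BH3-only protein that is held at the cytoskeleton, was close to the floor of these tables. It had 9, 21 and 9 counts in shTRIM21 replicates 1 to 3 and 2, 2 and 0 counts in shControl replicates 1 to 3. Every shTRIM21 library was above every shControl library, but shTRIM21 replicate 2 alone held more than the other shTRIM21 libraries together. The summed 39 counts in shTRIM21 and 4 counts in shControl gave a ratio of 10.2 after scaling. That ratio pools the libraries of each group, leaves out the spread between them and carries no test. Without the filter on low counts BMF was tested and not called (log2 fold change 3.25, SE 1.22). A level this low was set by few reads.

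Some members share exonic bases with other annotated genes. Whether reads there were counted for one gene, the other or both cannot be told, as neither the counting tool nor its strand setting is known here. BCL2L11 shares 727 exonic bases (11.9% of its own) with MIR4435-2HG, a long non-coding RNA gene on the opposite strand. MIR4435-2HG averaged 43.4 ± 1.87 CPM in shTRIM21 and 56.9 ± 6.83 CPM in shControl (SD, n = 3 each) and fell (log2 fold change -0.39, SE 0.09; adjusted p = 0.0134 by edgeR's quasi-likelihood test), and its part in the BCL2L11 value was not tested. BCL2L1 shares 1224 exonic bases (42.8%) with the antisense gene ABALON, which averaged 58.1 ± 3.34 CPM in shTRIM21 and 58.2 ± 4.29 CPM in shControl (SD, n = 3 each). BCL2L2 shares 588 exonic bases (16.3%) with the read-through gene BCL2L2-PABPN1, and BAD shares 380 (28.6%) with GPR137 on the opposite strand. BMF shares 461 bases with BMF-AS1, which is not analysed here. BAK1 shares 91 bases with GGNBP1, which held at most 1 count in any library, MCL1 shares 2 bases with ADAMTSL4-AS1, and BCL2A1 and BID share none with another annotated gene, so overlap covers little or none of these 4 members.

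Levels of different members were compared per length, as CPM per kilobase of exonic sequence in the GENCODE basic set (RPKM). MCL1 was highest at 280.1 ± 10.9 RPKM in shTRIM21 and 355 ± 19.3 RPKM in shControl (SD, n = 3 each). BCL2A1 followed at 87.0 ± 10.3 RPKM in shTRIM21 and 65.7 ± 8.03 RPKM in shControl, then BCL2L1 at 60.7 ± 3.07 and 59.5 ± 2.81 RPKM, and BAK1 at 28.8 ± 2.18 and 19.6 ± 2.46 RPKM in those groups. BID averaged 16.3 ± 0.270 RPKM in shTRIM21 and 14.7 ± 1.97 RPKM in shControl, and BCL2L2 14.5 ± 0.475 and 14.0 ± 0.908 RPKM. BAD averaged 5.26 ± 0.351 RPKM in shTRIM21 and 4.91 ± 1.65 RPKM in shControl, BCL2L11 2.17 ± 0.230 and 2.42 ± 0.183 RPKM, BCL2 1.34 ± 0.0926 and 1.08 ± 0.146 RPKM, and BMF 0.112 ± 0.0697 and 0.0111 ± 0.00961 RPKM.

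The order of the means was the same in both groups. In shTRIM21 the libraries of every pair of neighbours in that order were apart. In shControl the libraries of BCL2A1 and BCL2L1 overlapped, as did those of BID and BCL2L2, so those pairs are not ordered there. BID and BCL2L2 changed places when lengths were taken from all annotated transcripts in place of the basic set. The lengths include bases shared with other genes, among them 42.8% of BCL2L1 with ABALON. How reads there were counted is not known, so the order of BCL2A1 and BCL2L1 may depend on it in both groups. BCL2, after which the family is named, thus had the lowest level per length of the pro-survival members, far below MCL1.

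**Figure D3:**
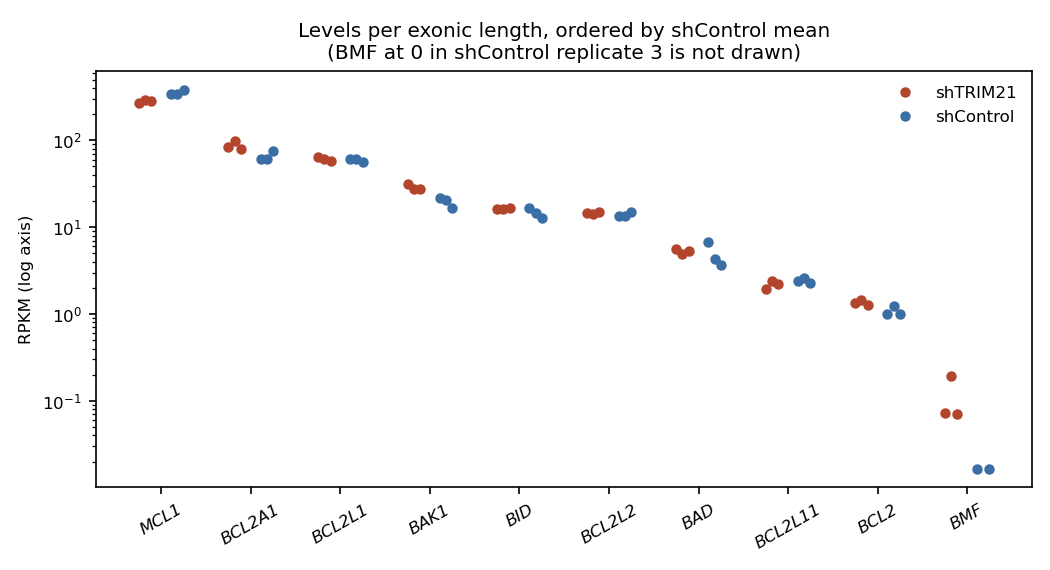
Levels per exonic length (RPKM, log axis) of the 10 members in each library, with shTRIM21 left of shControl and members ordered by the shControl mean; BMF at 0 in shControl replicate 3 is not drawn. MCL1 lies at 268 to 378 RPKM in all libraries and BCL2 at 0.989 to 1.44 RPKM, and the shControl points of BCL2A1 and BCL2L1 overlap.

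In shTRIM21 cells MCL1 took a smaller share, and BCL2A1 a larger share, of the pro-survival transcripts than in shControl cells. MCL1 made up 62.2%, 62.3% and 65.0% of the summed RPKM of the 5 pro-survival members in shTRIM21 replicates 1 to 3, and 71.6%, 71.5% and 71.9% in shControl replicates 1 to 3. BCL2A1 made up 19.3%, 21.3% and 18.1% in shTRIM21 and 12.6%, 12.8% and 14.3% in shControl. The groups were apart for both shares. BCL2L1 made up 13.7% ± 0.972 in shTRIM21 and 12.1% ± 1.15 in shControl (SD, n = 3 each), with no overlap although its own level was not called, since the 5 shares add up to the whole. The sum itself was 444 ± 17.2 RPKM in shTRIM21 and 496 ± 25.3 RPKM in shControl (SD, n = 3 each). The sizes of the shares and of the sum also depend on how reads in the overlap of BCL2L1 with ABALON were counted. The mean of MCL1 was lower by 75.2 RPKM in shTRIM21 (difference -75.2), and that of BCL2A1 was higher by 21.3 RPKM.

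A ratio of 2 members within a library does not depend on how libraries are scaled to each other. The ratios here were not corrected for GC differences between libraries. After correction for GC and length the log2 fold change was 0.44 for BAK1 and -0.33 for MCL1, against 0.56 and -0.34 without it. BAK1 stood at 11.7%, 9.53% and 9.74% of the MCL1 RPKM in shTRIM21 replicates 1 to 3 and at 6.27%, 5.90% and 4.46% in shControl replicates 1 to 3. Against BCL2L1, the other pro-survival protein known to hold BAK1, it stood at 49.1%, 45.3% and 47.9% in shTRIM21 and at 35.1%, 33.4% and 29.9% in shControl. All shTRIM21 libraries were above all shControl libraries in both ratios. BCL2L11 stood at 0.772% ± 0.0534 of the MCL1 RPKM in shTRIM21 and 0.685% ± 0.0825 in shControl (SD, n = 3 each), with overlapping libraries. The size of the ratio to BCL2L1 also depends on how reads in the overlap of BCL2L1 with ABALON were counted. All these ratios use the values that chose the members and carry no test. They compare RNA levels, and protein levels were not measured.

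**Figure D4:**
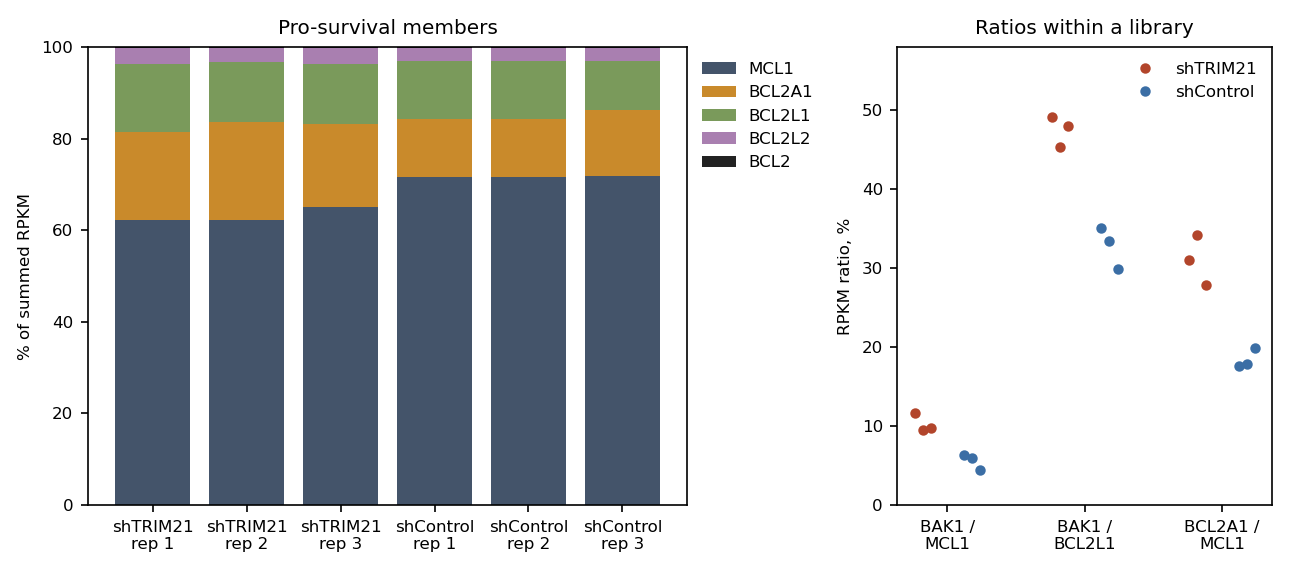
Left, share of each pro-survival member in the summed RPKM of all 5 (stacked bars, percent, 1 bar per library, shTRIM21 libraries first; BCL2 is under 1% and hardly visible). Right, BAK1 and BCL2A1 as percent of the MCL1 or BCL2L1 RPKM in each library. MCL1 takes 62.2% to 65.0% in shTRIM21 and 71.5% to 71.9% in shControl, and each ratio on the right is higher in all shTRIM21 libraries.

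In shControl, replicate 3 had the highest MCL1, BCL2A1 and BCL2L2 levels in CPM and the lowest levels of the other 7 members. It was also the library with the lowest share of ribosomal RNA counts, and its part in the members' values was not tested beyond leaving it out. Without it the log2 fold changes were 0.47 for BAK1, 0.52 for BCL2A1 and -0.29 for MCL1, all called. With replicate 3 left out of both groups these values were 0.50, 0.58 and -0.30, again all called.

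Around the members, 67 further genes of the apoptosis pathway were examined in 6 lists of genes with textbook roles. The lists, like the members, were chosen with earlier results of these data known, so their counts and p-values are no independent evidence. Of 60 tested, 3 rose, 4 fell and 53 did not pass edgeR's quasi-likelihood test. That is 11.7% of the tested genes, beside 9.08% of all genes tested, and the median log2 fold change was -0.01, beside 0.01 over all genes. The adjusted p-values that follow are from this test with Benjamini-Hochberg adjustment over all 14002 genes.

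Of the 15 genes of the apoptosome, caspases and their substrates that were tested, CASP8 rose, 0 fell and 14 did not pass. CASP8, the initiator caspase that cleaves BID, averaged 68.7 ± 1.31 CPM in shTRIM21 and 56.8 ± 4.14 CPM in shControl (SD, n = 3 each), with a log2 fold change of 0.27 (SE 0.08; edgeR adjusted p = 0.0348). CASP8 lost its call with any single library left out except shControl replicate 3, with edgeR adjusted p from 0.0777 without shTRIM21 replicate 1, through 0.0991 and 0.131 without shTRIM21 replicates 2 and 3, to 0.116 and 0.170 without shControl replicates 2 and 1.

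Of 12 tested genes among the other BCL2 family and BH3 genes, 1 rose and 0 fell. BNIP3L, a BH3-related receptor that marks mitochondria for autophagy, averaged 48.6 ± 1.91 CPM in shTRIM21 and 32.7 ± 3.27 CPM in shControl (SD, n = 3 each), with a log2 fold change of 0.57 (SE 0.09; edgeR adjusted p = 0.000742), called under all 16 alternatives. The p53 targets that the choice of members set aside did not pass: BAX had a log2 fold change of 0.23 (SE 0.10), BBC3 of 0.02 (SE 0.32) and PMAIP1 of -0.20 (SE 0.13), and they are named for that reason, after their values were seen. BAX, which forms pores as BAK1 does, averaged 46.3 ± 3.07 CPM in shTRIM21 and 39.6 ± 5.60 CPM in shControl (SD, n = 3 each). Its groups overlapped.

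Of 12 binding partners of the family's proteins, YWHAB rose, YWHAG fell and 10 did not pass. Both encode 14-3-3 proteins, which hold phosphorylated BAD in the cytosol. YWHAB averaged 447 ± 21.1 CPM in shTRIM21 and 381 ± 19.5 CPM in shControl, and YWHAG averaged 343 ± 18.6 CPM in shTRIM21 and 433 ± 13.2 CPM in shControl (SD, n = 3 each). The log2 fold changes were 0.23 (SE 0.06; edgeR adjusted p = 0.0280) for YWHAB and -0.33 (SE 0.06; edgeR adjusted p = 0.00210) for YWHAG. YWHAB lost its call without shControl replicate 1 (edgeR adjusted p = 0.152), shControl replicate 2 (0.0926), shTRIM21 replicate 2 (0.103) or shTRIM21 replicate 3 (0.159).

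Of 7 tested turnover enzymes, 1 fell and 6 did not pass. USP13, a deubiquitinase known to stabilise MCL1 protein, averaged 45.1 ± 1.99 CPM in shTRIM21 and 59.5 ± 1.32 CPM in shControl (SD, n = 3 each), with a log2 fold change of -0.40 (SE 0.08; edgeR adjusted p = 0.00403), called under all 16 alternatives. Of 6 tested caspase inhibitors, CFLAR and BIRC6 fell and 4 did not pass. CFLAR (FLIP), which blocks caspase 8 at death receptors, averaged 33.3 ± 1.48 CPM in shTRIM21 and 41.6 ± 1.83 CPM in shControl (SD, n = 3 each; log2 fold change -0.32, SE 0.09; edgeR adjusted p = 0.0316). BIRC6, a large ubiquitin ligase that binds caspases, averaged 199 ± 7.09 CPM in shTRIM21 and 235 ± 20.2 CPM in shControl (SD, n = 3 each; log2 fold change -0.24, SE 0.07; edgeR adjusted p = 0.0328). Both calls were lost with any single library left out except shControl replicate 3. In edgeR's test those adjusted p were 0.0606 to 0.111 for CFLAR and 0.0826 to 0.168 for BIRC6. After correction for GC and length BIRC6 was still called at a smaller log2 fold change of -0.14 (edgeR adjusted p = 0.0462), and the CFLAR call was also lost after correction for GC and length (0.0887) and with replicate 3 left out of both groups (0.0999).

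Of the 11 death receptors and adaptors, 8 were tested and none was called. The 2 with the highest level were TNFRSF10B, a receptor for the death ligand TRAIL, at 238 ± 4.41 CPM in shTRIM21 and 229 ± 12.5 CPM in shControl, and TNFRSF10D, a decoy receptor for TRAIL, at 94.1 ± 5.73 CPM in shTRIM21 and 103 ± 5.13 CPM in shControl (SD, n = 3 each). The log2 fold changes were 0.05 (SE 0.06) and -0.12 (SE 0.07), and neither passed.

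**Figure D5:**
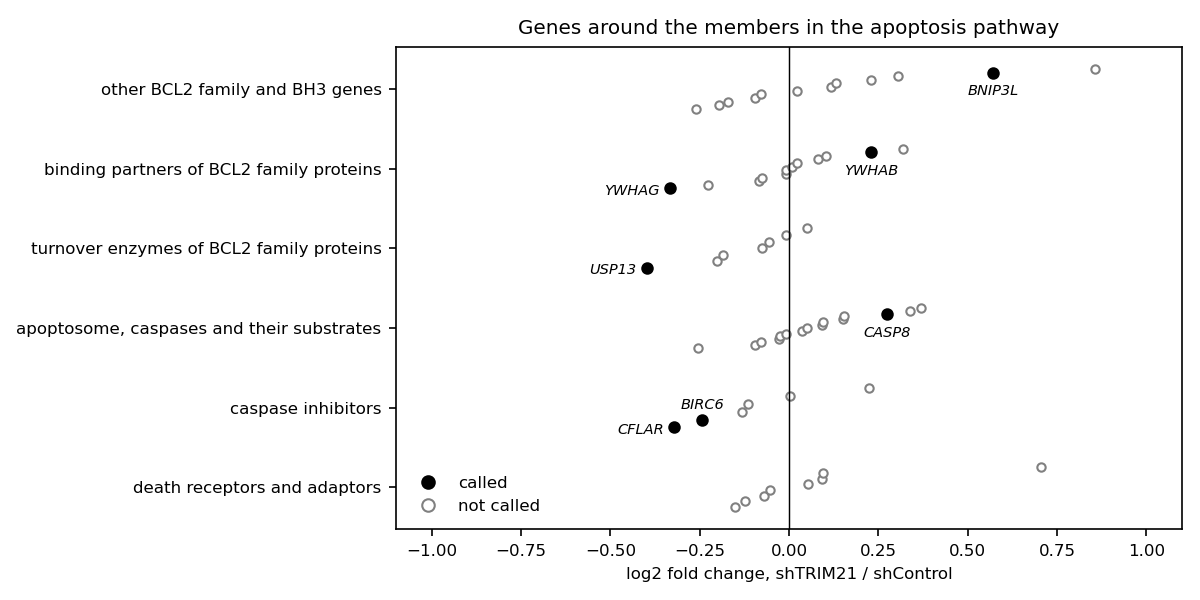
Log2 fold change (shTRIM21 over shControl) of the 60 tested genes in 6 lists around the members, 1 point per gene; filled points with names were called and open points were not. USP13 at -0.40 and BNIP3L at 0.57 are the called genes farthest from 0 on either side, and the death receptors and adaptors hold no filled point.

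AGTGGAA also occurs in the 3′ UTRs of USP13 (2 sites in 5260 bases) and YWHAG (1 in 2783), which fell, and of BNIP3L (1 in 2717) and YWHAB (1 in 2094), which rose. It is in none of CFLAR, BIRC6 and CASP8. AGTGGAA is also in listed genes that were not called, and in 18.7% of the 11881 tested genes with an annotated 3′ UTR. GTGTCAC is in USP13 and YWHAB (1 site each), and in 11.0% of those tested genes. These counts describe the annotated transcripts, and which 3′ ends the cells used was not measured.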

How the data were processed

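Total RNA from HCT116 cells was depleted of ribosomal RNA and made into libraries with a low-input kit, per the labels' protocols. What the authors deposited is 1 table of raw, unnormalized counts by gene symbol for each library. TopHat2 2.1.1, edgeR 3.38.1, limma 3.52.2 and the hg38 genome are named, per the submitters' processing notes. For the counting tool, annotation and strand setting, each is not given in the sources used here.

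Genes passing filterByExpr (14002) were TMM-scaled and tested in edgeR 4.0.16 under R 4.3.3, by the quasi-likelihood test with no other term and Benjamini-Hochberg adjustment. The SE is the fold change divided by the square root of F. Lengths, overlaps and UTRs come from GENCODE release 29, which gave 25473 of the symbols a single gene. The 16 alternatives covered scaling, filter, DESeq2 1.42.0, limma-voom (limma 3.58.1), the replicate block, libraries or ribosomal RNA genes left out, and a GC and length correction. Same-group libraries differed by more than sampling noise, so none was merged.

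The members, lists and 7-base sequences were chosen with earlier results of these data known. The text names every member, TRIM21, each listed gene that was called, the 2 most abundant genes of a list with none called, and genes that overlap a member. A symbol at 0 is not read as absence. Some genes of the lists are not reported here and stand in no list count.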

Additional observations from a re-analysis of the deposited data

How the results depend on the processing

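BAK1 and MCL1 kept their direction and their call under all 16 alternatives. BCL2A1 kept its direction under all of them and lost its call without shControl replicate 1 or shTRIM21 replicate 2. After correction for GC and length 1916 genes, 4 members (BCL2 added) and 12 apoptosis list genes were called, against 1272, 3 and 7. Without the filter on low counts 11 apoptosis list genes were called. With 1 library left out the calls numbered 602 to 1737 genes, 2 to 3 members and 3 to 9 apoptosis list genes, and TRIM21 ranged from -0.82 to -0.56. The TRIM21 call ended with shTRIM21 replicate 3 left out (-0.62) and with replicate 3 left out of both groups (-0.45). BCL2L1 turned to -0.051 after that correction, -0.0030 without shControl replicate 3 and -0.0084 without shTRIM21 replicate 1, and reached 0.065 without shTRIM21 replicate 3. BAD turned to -0.091 after that correction, -0.073 with replicate 3 left out of both groups and -0.063 without shControl replicate 3, and reached 0.41 without shControl replicate 1. The cause was not tested. Deviations from the group mean correlated between same-numbered libraries at 0.0960, -0.0123 and 0.0907 for numbers 1 to 3. The values of numbers 1 and 3 were the highest among all pairs of a shTRIM21 and a shControl library. For shTRIM21 replicate 2 the value was higher with shControl replicate 3 (0.0248). The share of ribosomal RNA counts fell from replicate 1 to replicate 3 in both groups. These values do not settle whether libraries of the same number are paired, and a batch shared by number was not tested further. With the replicate number as a block 1699 genes, 3 members and 11 apoptosis list genes were called, and TRIM21 was -0.72. Depth limited BMF most, with 39 counts in shTRIM21 and 4 in shControl.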
